A study of Mus musculus with 40 samples.

Results

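The 10 genes described here are Nfe2l2, which encodes the transcription factor NRF2, and 9 genes that NRF2 is known to switch on: Srxn1, Prdx1, Txnrd1, Gsr, Slc7a11, Gclc, Gclm, Hmox1 and Nqo1. They were chosen by symbol from 47729 gene symbols in the count and RPKM tables, and all 10 were found and passed the filter on low counts in every comparison. RNA was sequenced from the inguinal mammary gland of Balb/cJ mice, with the lymph node taken out, in 8 groups of 5 mice. All mice, controls included, had lost their ovaries at 21 days of age and ate a purified control diet of the AIN 93G type or a version of it after 7 days of recovery. The estrogen groups drank water with 200 nM estrogen and were sampled at 60 h and 84 h of treatment, each time with its own untreated controls. The CLA groups ate a version of the diet in which conjugated linoleic acid (CLA, a mixture of isomers of linoleic acid) supplied fat at 2.7%, and were sampled at 108 h and 132 h, again each with its own controls. The labels call the 5 mice of a group biological replicates. The study asked how the gland's transcripts respond to a diet that makes it grow without estrogen.

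NRF2 is held in the cytoplasm by KEAP1, which hands it to a ubiquitin ligase for destruction. Oxidants and reactive lipids modify KEAP1, NRF2 then escapes, pairs with a small MAF protein in the nucleus and binds antioxidant response elements, short DNA motifs upstream of its target genes. The targets restore oxidized peroxiredoxins (Srxn1), remove peroxides (Prdx1), recharge thioredoxin and glutathione (Txnrd1, Gsr), bring in cystine and build glutathione (Slc7a11, Gclc, Gclm), break down heme (Hmox1) and reduce quinones (Nqo1). In the mammary gland genes of this pathway can be active in epithelium, fat cells and macrophages, which bulk tissue does not separate.

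The promoters of Srxn1 and Prdx1 are shown because these genes gave the smallest p-values of the 10 in the CLA comparison at 108 h, and short stretches are shown around matches in other members, those of Slc7a11 for an element that the first 2 do not hold. RefSeq promoters (GRCm38.p6, 250 bases before to 50 bases after the annotated start) were found for 7 of the 10 genes, and those of Hmox1, Gclc and Gsr are named only. Capitals mark matches to 4 motifs searched on both strands: the core of the antioxidant response element as TGACNNNGC and its G form TGAGNNNGC, the AP-1 site TGAGTCA, and the element TGATGCAA bound by ATF4 and C/EBP factors. An AP-1 site can lie inside a match to the antioxidant core, as it does in both genes printed at length. The first 2 sequences end before the earliest base of the gene in RefSeq and GENCODE. The Txnrd1 stretch lies inside the annotated gene, before an internal start. The Slc7a11 stretches lie before the GENCODE start but inside the RefSeq span of the gene (chr3:50364936-50499087). All are written 5′ to 3′ on the gene's own strand, and they come from chr2:152105274-152105515 (plus strand, Srxn1), chr4:116685349-116685543 (plus strand, Prdx1), chr10:82859104-82859132 (plus, Txnrd1), chr3:122245413-122245441 (plus, Gclm), chr2:75704885-75704913 (minus, Nfe2l2), and chr3:50443662-50443689 and chr3:50443643-50443670 (minus, Slc7a11).
Srxn1: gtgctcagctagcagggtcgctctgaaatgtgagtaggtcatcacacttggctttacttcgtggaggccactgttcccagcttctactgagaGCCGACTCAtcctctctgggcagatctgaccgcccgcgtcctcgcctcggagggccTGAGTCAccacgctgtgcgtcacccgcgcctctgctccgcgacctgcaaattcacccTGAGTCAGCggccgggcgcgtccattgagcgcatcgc
Prdx1: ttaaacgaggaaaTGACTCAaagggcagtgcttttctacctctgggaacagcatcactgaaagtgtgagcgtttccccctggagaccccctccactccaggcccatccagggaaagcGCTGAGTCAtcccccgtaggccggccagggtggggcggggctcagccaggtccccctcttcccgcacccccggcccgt
Txnrd1: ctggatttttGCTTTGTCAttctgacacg
Gclm: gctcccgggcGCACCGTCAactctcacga
Nfe2l2: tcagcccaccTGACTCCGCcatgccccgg
Slc7a11, upstream element: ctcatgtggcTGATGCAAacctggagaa
Slc7a11, downstream element: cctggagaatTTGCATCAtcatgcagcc

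Of the 7 members with a promoter entry, 5 held TGACNNNGC in the 300-base window (Nfe2l2, Srxn1, Gclm, Prdx1 and Txnrd1), against 12.4% of all 32851 promoters in the table. The Srxn1 match to this form lay after the start and is not printed. The G form TGAGNNNGC was found in 3 of the 7 (Srxn1, Prdx1 and Slc7a11) and in 17.6% of all promoters. Its Prdx1 match lay after the start, and neither that match nor the one in Slc7a11 is printed. The AP-1 site was found in 2 of the 7 (Srxn1 and Prdx1) and in 5.2% of all. In Srxn1 an AP-1 site 45 bases before the start was also a match to TGAGNNNGC, and in Prdx1 one 131 bases before the start lay within a match to TGACNNNGC. Slc7a11 carried TGATGCAA in both orientations, 66 and 47 bases before the start of its promoter entry, which lies inside the RefSeq span. This element was found in 0.895% of all promoters. The shares of all promoters count promoter entries, whereas the members are counted by gene. By entry, TGACNNNGC was in 5 of 9 member promoters, TGAGNNNGC in 3, the AP-1 site in 2 and TGATGCAA in 1. A match is a run of letters, not a measured binding site, and for Txnrd1, which has 3 promoter entries in the table, only 1 of them held TGACNNNGC.

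Libraries held 18183713 to 40026800 counts. Markers of mature fat cells were high in all 8 groups (summed level of 10 markers between 18781 and 42652 CPM, the counts scaled to a common library size), and those of mammary epithelium were detected in all 8 groups at lower levels (7.96 to 774 CPM over 8 markers). Skin and hair markers averaged above 1.5 log2 CPM in 11 of 40 libraries, called high in skin here, namely 1 of estrogen at 60 h, 1 of control and 3 of estrogen at 84 h, 3 of control at 108 h and 3 of control at 132 h, and in 0 of the 10 CLA libraries. Their values ran on through this limit, with 1.80 the lowest above it and 1.41 the highest below it, both in controls at 84 h. Animal numbers in the sample titles fall into 4 runs, split at gaps of more than 15, a limit set here. The breaks between 94 and 112 and between 121 and 138 only just exceed it, so a wider limit would join runs. With this limit all 10 estrogen mice had numbers in a run with no control, so estrogen and that run cannot be told apart. CLA mice and their controls shared 2 runs at 108 h and 3 at 132 h. CPM below are after TMM scaling of the counts and serve to compare groups within a gene. RPKM, the authors' reads per kilobase scaled for depth, serve to compare genes. In such bulk tissue a change in the number of cells of a type and a change in RNA per cell cannot be told apart.

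In the 20 control libraries Prdx1, a peroxiredoxin that reduces hydrogen peroxide, had the highest level of the 10 genes at 74.5 ± 4.34 RPKM (SD, n = 20). Hmox1 (20.2 ± 11.2 RPKM), Txnrd1 (18.3 ± 1.40), Nfe2l2 (16.7 ± 3.01) and Gsr (15.4 ± 1.35) came next, and their ranges over libraries overlapped. Srxn1 stood at 10.0 ± 1.07 RPKM, Gclc at 7.26 ± 1.58 and Gclm at 6.54 ± 0.586. Nqo1 was low at 2.26 ± 0.572 RPKM. Slc7a11, the cystine carrier, was the lowest at 0.10 ± 0.060 RPKM, with as few as 28 counts in a library. Hmox1 was the most uneven gene between control mice, with a coefficient of variation of 53.5% in CPM, and Prdx1 the most even at 6.86%. Without 1 control at 108 h with 173 CPM, a setting chosen after the data were seen, that of Hmox1 was 34.8% and its mean 18.1 RPKM, just under that of Txnrd1.

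With CLA, 9 of the 10 genes rose at 108 h and 8 rose at 132 h, and 0 fell at either time. At 108 h this stood beside 47.9% of all 17248 genes tested that changed (24.9% rose and 23.0% fell), and at 132 h beside 56.0% of 17180 (27.0% rose and 29.0% fell), at an adjusted p under 0.05. The split of all genes depended on the scaling. At 108 h 4293 rose and 3968 fell in counts, 3592 and 4907 with upper-quartile scaling, and 5228 and 2958 in RPKM (limma on log2(RPKM + 0.1)). At 132 h the numbers were 4638 and 4975 in counts and 6381 and 3114 in RPKM, where the majority turned. Of the 10 genes, 8 to 9 rose and 0 fell at each time under these settings. The median log2 fold change of the 10 genes was 0.79 at 108 h and 0.59 at 132 h, while that of all genes was -0.01 and -0.03. In 8 of the 10 genes every CLA library was above every control library at each time, an order found for 18.1% of all genes at 108 h and 20.8% at 132 h. The opposite order was found for 14.1% and 16.0%, which makes 32.2% and 36.9% of genes without overlap. The exceptions were Nqo1 and Gclc at both times. The summed level of the 10 genes went from 666 ± 69.7 to 1309 ± 47.8 CPM (SD, n = 5 in each group) at 108 h, a ratio of 1.97, and from 634 ± 8.75 to 1267 ± 116 CPM at 132 h. In the estrogen comparisons 0 of the 10 rose and 1 fell at each time, beside 6.49% of all genes changed at 60 h (4.07% higher and 2.42% lower) and 5.42% at 84 h (3.45% and 1.97%). There too the split moved, at 60 h from 702 higher and 417 lower to 920 and 288 with upper-quartile scaling. At 84 h it moved from 592 and 339 to 712 and 231 with upper-quartile scaling and to 798 and 131 in RPKM.

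**Figure D1:**
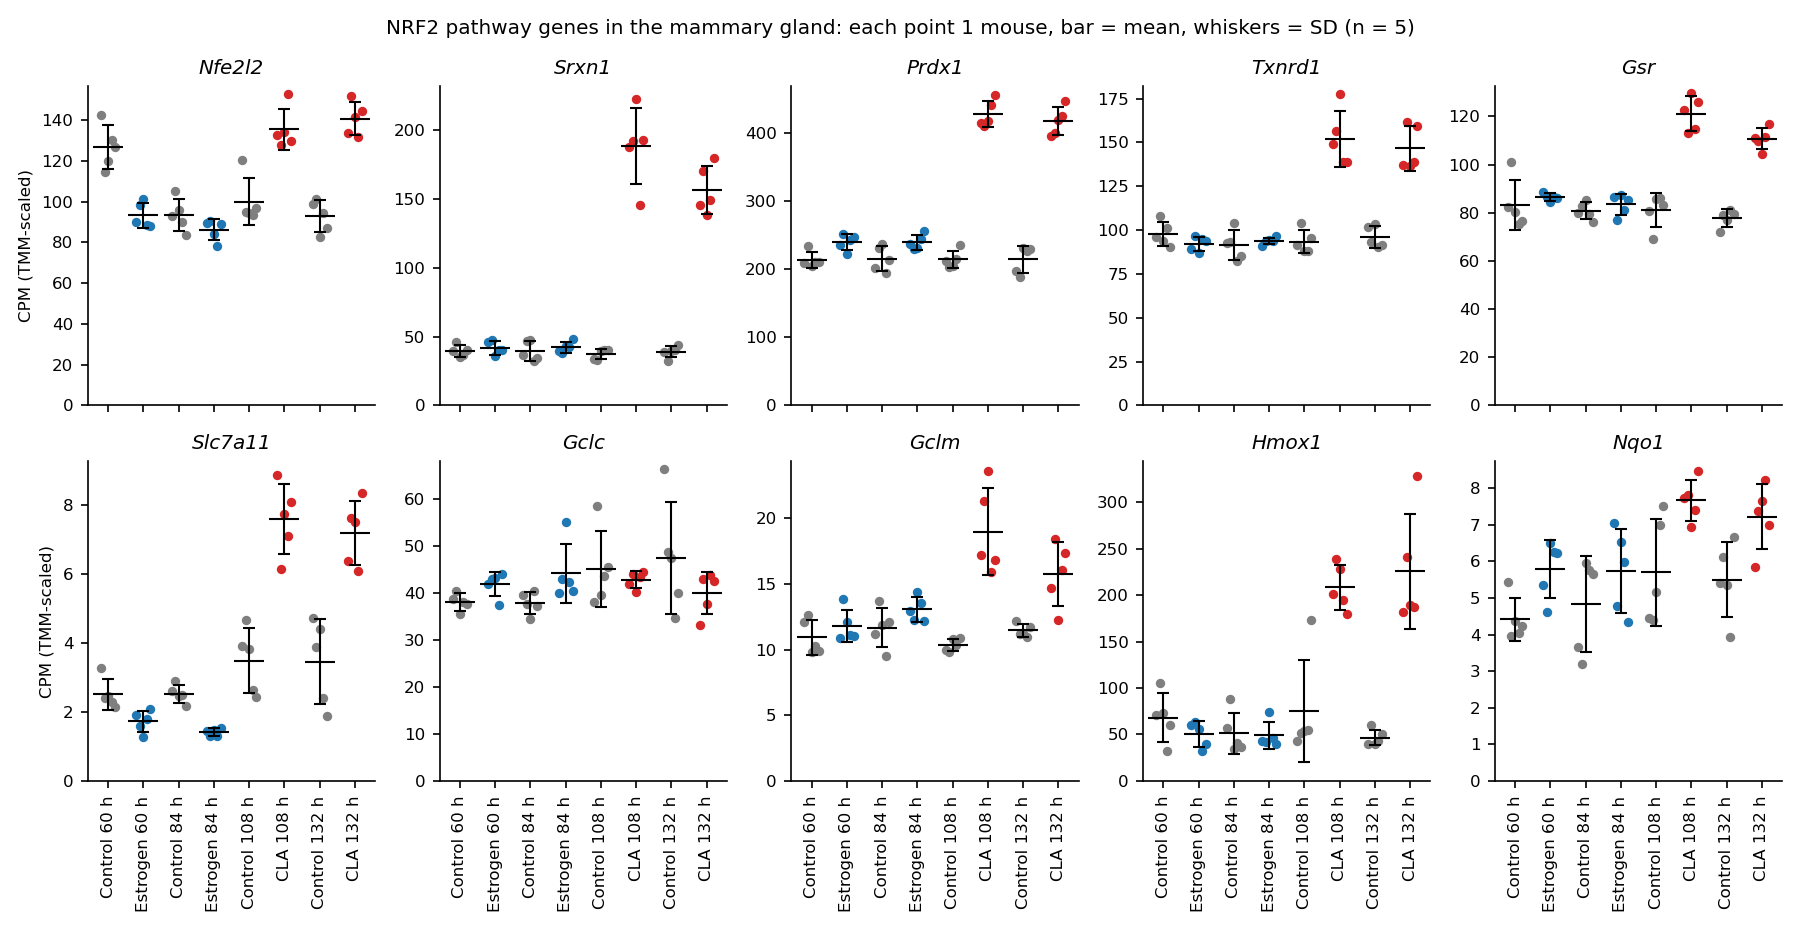
CPM after TMM scaling (y axes, from 0) of the 10 genes in each of the 8 groups (x axes), with 1 point per mouse, bars for the mean and whiskers for the SD of 5 mice, controls in grey, estrogen in blue and CLA in red. In 8 panels all CLA points lie above their controls, Gclc and Nqo1 being the exceptions, and Nfe2l2 is high in the controls at 60 h.

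Srxn1 (chr2:152105516-152111376) encodes sulfiredoxin, which uses ATP to repair peroxiredoxins that peroxide has inactivated. In controls at 108 h it measured 33.6, 33.0, 39.8, 40.6 and 40.3 CPM, and in CLA mice 187, 192, 222, 145 and 193 CPM. In controls at 132 h it measured 38.5, 32.5, 39.8, 40.5 and 43.6 CPM, and in CLA mice 146, 169.9, 138, 149 and 179.6 CPM. The lowest CLA library, at 138 CPM, was far above the highest of all control and estrogen libraries, which was an estrogen library at 84 h with 47.9 CPM. The log2 fold change was 2.33 ± 0.11 (SE; adjusted p = 3.81e-11) at 108 h and 1.99 ± 0.11 (adjusted p = 8.92e-11) at 132 h. By p-value Srxn1 ranked 2 of 17248 genes at 108 h and 42 of 17180 at 132 h.

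Prdx1 (chr4:116685544-116700822) encodes the peroxiredoxin that sulfiredoxin repairs. Its controls at 108 h measured 212, 204, 205, 215 and 235 CPM and its CLA libraries 415, 409, 417, 441 and 455 CPM. At 132 h the controls measured 198, 188, 230.2, 226 and 229.9 CPM and the CLA libraries 395, 399.7, 418, 424 and 447 CPM. Both CLA groups were tight and far from their controls. The fold was 1.99 (log2 fold change 1.0 ± 0.05, adjusted p = 1.86e-10) at 108 h and 1.93 (0.95 ± 0.07, adjusted p = 1.69e-09) at 132 h, and at 108 h the gene ranked 6 by p-value.

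Txnrd1 (chr10:82833951-82897712), thioredoxin reductase, keeps thioredoxin reduced with NADPH. At 108 h it went from 91.7, 104, 88.1, 87.8 and 95.6 CPM in controls to 149, 156, 177, 139 and 139 CPM with CLA. At 132 h it went from 102, 93.0, 103, 90.2 and 91.7 CPM to 137, 162, 137, 139 and 159.6 CPM. The groups were apart at both times, with log2 fold changes of 0.70 ± 0.07 (adjusted p = 1.28e-07) and 0.60 ± 0.07 (adjusted p = 3.61e-07). The annotated span of Txnrd1 holds 3 other genes, 2 of them on the opposite strand (Gm38560 and Gm47073), so some of its reads could belong to them.

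Gsr (chr8:33652523-33698163), glutathione reductase, returns oxidized glutathione to its working form. At 108 h its controls measured 80.9, 69.1, 85.9, 86.2 and 83.1 CPM and its CLA libraries 122, 113, 129.6, 115 and 126 CPM. At 132 h the controls measured 72.0, 79.2, 77.1, 81.3 and 79.5 CPM and the CLA libraries 111, 110.0, 105, 111 and 117 CPM. The rise was smaller than that of Prdx1, and here too the groups did not overlap, with log2 fold changes of 0.58 ± 0.07 (adjusted p = 2.50e-06) and 0.50 ± 0.05 (adjusted p = 5.56e-08).

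Glutathione is built from cysteine in an enzyme whose catalytic part is Gclc (chr9:77754535-77794485) and whose modifier part, which raises its efficiency, is Gclm (chr3:122245557-122270732). The pair differed in these data. Gclm at 108 h went from 9.97, 9.85, 10.8, 10.3 and 10.9 CPM in controls to 17.2, 21.3, 23.6, 15.9 and 16.8 CPM with CLA, a log2 fold change of 0.87 ± 0.11 (adjusted p = 2.21e-06). At 132 h it went from 12.2, 11.2, 11.3, 10.9 and 11.7 CPM to 14.7, 18.4, 12.2, 16.1 and 17.4 CPM, and there the lowest CLA library and the highest control both rounded to 12.2 CPM. That change was 0.45 ± 0.10 (adjusted p = 0.00110), and 0.73 on the log2(RPKM + 0.1) scale. Gclm overlaps Gm17494 on the opposite strand and Gm6061.

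Gclc did not pass the test at either time. Its controls at 108 h measured 38.1, 58.4, 39.6, 43.5 and 45.4 CPM and its CLA libraries 41.8, 44.1, 40.2, 43.4 and 44.5 CPM, with a log2 difference of -0.07 ± 0.09 (adjusted p = 0.502). At 132 h the controls measured 66.2, 48.6, 47.4, 34.6 and 40.0 CPM and the CLA libraries 33.1, 42.9, 37.6, 43.7 and 42.5 CPM, with a difference of -0.26 ± 0.13 (adjusted p = 0.103). The spread lay in the controls, and it went with skin only in part. In the 6 controls of these times with a high skin signal Gclc had a median of 48.0 CPM (38.1 to 66.2). In the 4 without it the median was 39.8 CPM (34.6 to 43.5). The lowest control at 108 h, at 38.1 CPM, was itself high in skin. Whether skin in the sample sets the Gclc level was not tested. Without the libraries high in skin markers the difference at 132 h was 0.09 (adjusted p = 0.564), and without control replicate 4, which had the lowest Gclc of its group, it was -0.36 and passed (adjusted p = 0.0199).

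Slc7a11 (chr3:49892526-50443614, minus strand) encodes the cystine-specific chain of the cystine-glutamate exchanger. At 108 h it went from 3.9, 4.66, 3.82, 2.63 and 2.43 CPM in controls to 8.87, 6.15, 7.74, 7.11 and 8.07 CPM with CLA. At 132 h it went from 4.71, 3.88, 4.4, 2.41 and 1.90 CPM to 6.38, 7.60, 7.50, 6.09 and 8.33 CPM. The groups did not overlap, and the log2 fold changes were 1.12 ± 0.18 (adjusted p = 3.40e-05) and 1.03 ± 0.19 (adjusted p = 0.000144). In RPKM the same mice went from 0.130 ± 0.0720 to 0.489 ± 0.0811 at 108 h and from 0.132 ± 0.0807 to 0.442 ± 0.0982 at 132 h (SD, n = 5 each), a wider gap in proportion than in CPM. In controls of these times the median of Slc7a11 was also higher with skin, though the ranges overlapped. It was 4.15 CPM (2.43 to 4.71) in the 6 high-skin libraries and 2.52 CPM (1.90 to 3.82) in the other 4.

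The count and RPKM tables differed more for Slc7a11 than for the other 9 genes. Its CPM divided by its RPKM averaged 15.6 to 38.1 over the groups, lowest with CLA. For Srxn1 that quotient stayed between 3.47 and 4.02, for Prdx1 between 2.64 and 2.97, and for Gclm between 1.40 and 1.79. Each of the other 9 genes also had its lowest group mean with CLA. For a gene of 1 length counted the same way in both tables the quotient would vary only with the scaling of the libraries. The GENCODE span of Slc7a11 is 551 kb and holds 5 other genes, 3 on the opposite strand, while RefSeq gives 134 kb. Which gene model and strand setting the authors counted with is not given in the sources used here, so the size of its changes is less certain than that of the others, though its rise with CLA passed the test in both units.

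**Figure D2:**
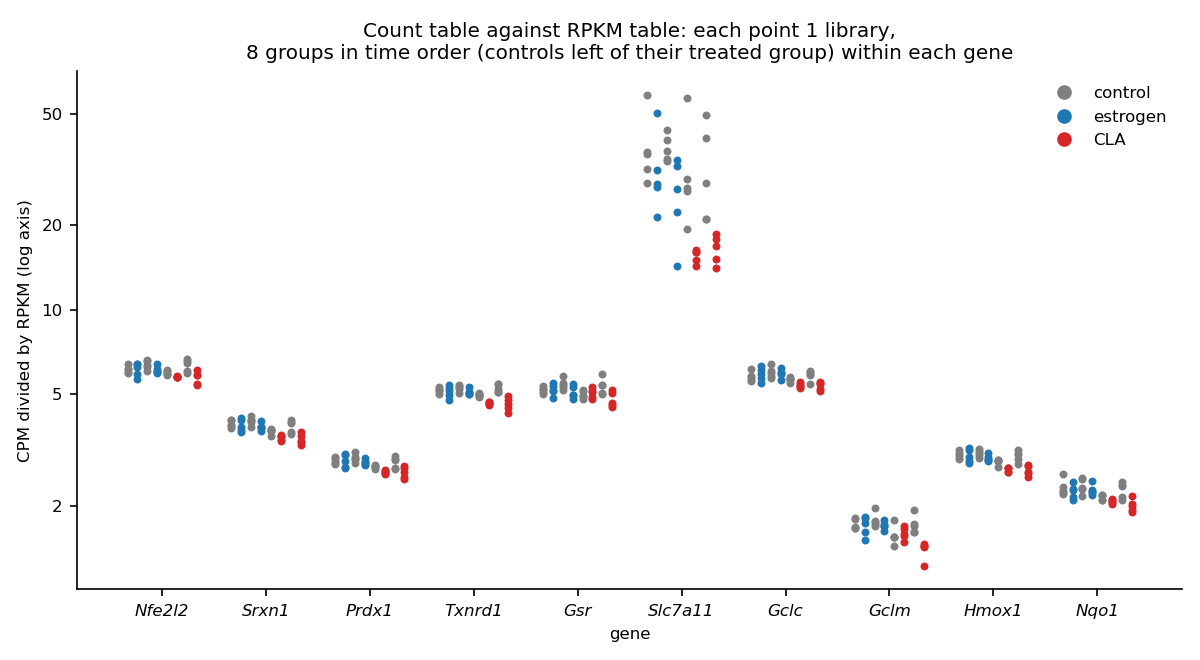
CPM divided by RPKM (y axis, logarithmic) for the 10 genes (x axis), with 1 point per library and the 8 groups in time order within each gene, controls in grey, estrogen in blue and CLA in red. The points of 9 genes form narrower bands than those of Slc7a11, which spread widely and lie lowest with CLA.

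Hmox1 (chr8:75093621-75100589), heme oxygenase, splits heme into biliverdin, iron and carbon monoxide, and macrophages that clear red cells and dying cells express it strongly. At 108 h its controls measured 43.4, 52.1, 53.2, 55.1 and 173 CPM and its CLA libraries 201, 238, 228, 195 and 179.6 CPM. At 132 h the controls measured 40.3, 59.8, 39.5, 43.2 and 50.8 CPM and the CLA libraries 182, 241, 189, 187 and 328 CPM. The log2 fold change was 1.47 ± 0.36 (adjusted p = 0.00256) at 108 h and 2.26 ± 0.26 (adjusted p = 1.02e-06) at 132 h. The control at 173 CPM stood far from the other 4, and without it the 108 h value was 2.02 ± 0.26 (adjusted p = 1.03e-05). That library's macrophage markers were not raised, with a summed level of 934 CPM, the lowest of its group. It was among the libraries called high in skin, with a mean of 2.06 log2 CPM. Its muscle markers summed to 58.3 CPM, within the 3.92 to 107 CPM of its group. Why Hmox1 was high in it was not tested.

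Nqo1 (chr8:107388225-107403206) encodes a quinone reductase that is often used as a reporter of NRF2. Its level was low and its rise with CLA was slight. Controls at 108 h measured 4.46, 4.4, 5.15, 6.99 and 7.51 CPM and CLA libraries 7.73, 7.82, 6.94, 7.41 and 8.47 CPM. The log2 fold change of 0.43 ± 0.15 passed the test (adjusted p = 0.0214), but the ranges overlapped, and it was 0.36 with upper-quartile scaling (adjusted p = 0.0518) and 0.33 without the high-skin libraries (adjusted p = 0.135). Without control replicate 1, 2 or 3 it was 0.35, 0.35 and 0.39 and did not pass either (adjusted p = 0.0637, 0.061 and 0.0502). At 132 h controls measured 5.40, 6.13, 5.37, 3.94 and 6.66 CPM and CLA libraries 5.84, 7.38, 7.65, 8.21 and 7.00 CPM, a difference of 0.38 ± 0.18 that did not pass (adjusted p = 0.0888) although limma on log2(RPKM + 0.1) passed it (0.57, adjusted p = 0.0228).

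Nfe2l2 itself (chr2:75675513-75704641, minus strand) rose with CLA. At 108 h it went from 121, 94.7, 94.3, 93.3 and 97.1 CPM in controls to 133, 128, 134, 153 and 129.7 CPM, a log2 fold change of 0.44 ± 0.08 (adjusted p = 8.94e-05). At 132 h it went from 98.8, 101, 82.4, 94.4 and 87.2 CPM to 134, 152, 142, 132 and 145 CPM, a change of 0.59 ± 0.07 (adjusted p = 5.76e-07). Every CLA library lay above every control of its time, although 1 control at 108 h stood nearer to them than to the other 4. NRF2 is mainly controlled as a protein, which these data do not measure.

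Between the CLA times, 0 of the 10 genes differed in their response by edgeR's test of the difference, as did 0 of all 17852 genes tested (percent called: 0). At an unadjusted p under 0.05 there were 2 of the 10, Srxn1 (-0.32 ± 0.15 from 108 h to 132 h) and Gclm (-0.41 ± 0.15), with adjusted p of 0.388 and 0.240, and 2216 of all genes. DESeq2 and limma also called 0 of the 10. Hmox1 had a difference of 0.80 ± 0.44 in the other direction (adjusted p = 0.461), and 0.23 ± 0.36 (adjusted p = 0.844) without the control at 173 CPM. Within the runs of animal numbers Srxn1 differed by 2.06 and 2.58 in the 2 runs at 108 h and by 1.89 to 2.09 in the 3 at 132 h. At 132 h 1 run held 1 CLA mouse and 2 controls, and another held 1 of each. The CLA differences of the 8 genes that rose at both times were above 0 in every run. That sign was fixed beforehand, because every CLA library of these genes lay above every control of its time.

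With estrogen at 60 h, Nfe2l2 fell by 0.44 ± 0.08 on the log2 scale (adjusted p = 0.00444), the only gene of the 10 to pass. Estrogen mice measured 90.2, 98.2, 101, 88.6 and 88.1 CPM and their controls 142, 114, 119.9, 130.3 and 127 CPM, with no overlap. Of all genes 2.73% were lower and 3.60% higher with estrogen without overlap, 6.33% in all. These controls stood apart from the other controls, whose group means were 93.5 CPM at 84 h, 100 CPM at 108 h and 92.8 CPM at 132 h. Over the 4 control groups Nfe2l2 was also the only gene of the 10 to differ (adjusted p = 0.000648), where 13.4% of all genes did. The estrogen level of 93.3 ± 6.05 CPM (SD, n = 5) was close to that of the later controls. At 84 h Nfe2l2 was 86.2 ± 5.17 CPM with estrogen and 93.5 ± 7.87 CPM without (log2 difference -0.11 ± 0.07, adjusted p = 0.373).

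At 84 h Slc7a11 was the only gene of the 10 to pass with estrogen, and it fell by 0.83 ± 0.20 on the log2 scale (adjusted p = 0.0195). Estrogen mice measured 1.45, 1.29, 1.48, 1.31 and 1.55 CPM and controls 2.61, 2.91, 2.45, 2.48 and 2.17 CPM, without overlap. Of all genes 3.25% were lower and 4.79% higher without overlap at this time, 8.04% in all. At 60 h the levels were also apart, 1.73 ± 0.310 against 2.51 ± 0.445 CPM (SD, n = 5 each), but the difference of -0.54 ± 0.18 did not pass (adjusted p = 0.0769). The RPKM table did not show it: the level at 84 h was 0.0601 ± 0.0252 RPKM with estrogen and 0.0675 ± 0.0113 RPKM without, a difference of -0.08 on the log2(RPKM + 0.1) scale (limma, adjusted p = 0.880). With fewer mice the difference in counts stayed about as large but missed the threshold: it was -0.80 without control replicate 1 (adjusted p = 0.058), -0.77 without control replicate 2 (0.0509), -0.80 without estrogen replicate 4 (0.052) and -0.85 without the high-skin libraries (0.0731).

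The other 8 genes did not pass with estrogen at either time. Prdx1 was 239.6 ± 11.4 against 214 ± 11.7 CPM at 60 h (log2 difference 0.17 ± 0.05, adjusted p = 0.0604) and 239 ± 10.8 against 215 ± 18.3 CPM at 84 h (0.16 ± 0.07, adjusted p = 0.188), with all 5 estrogen mice above the control mean each time. The 60 h value passed when control replicate 2 was left out (0.20, adjusted p = 0.0414), when estrogen replicate 3 was (0.19, adjusted p = 0.0454), and with upper-quartile scaling or DESeq2. Srxn1 was 41.9 ± 4.87 against 39.4 ± 4.19 CPM at 60 h and 42.2 ± 3.85 against 39.5 ± 7.17 CPM at 84 h, so its ranges overlapped. Nqo1 had the largest positive difference, 0.39 ± 0.15 at 60 h (adjusted p = 0.116). Hmox1 was -0.44 ± 0.35 at 60 h (adjusted p = 0.503) and -0.06 ± 0.25 at 84 h (adjusted p = 0.922), with wide errors. Between 60 h and 84 h, 0 of the 10 differed in their estrogen response (1 of all 17852 genes did, 0.00560%), and at an unadjusted p under 0.05 there was 1, Nfe2l2 (adjusted p = 0.633).

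Mammary epithelium markers rose with estrogen, 6 of 8 at 60 h and 4 of 8 at 84 h, and their summed level was 6.37 and 5.77 times that of controls. The summed level of the 10 antioxidant genes was 0.971 and 1.05 times that of controls in the same mice. At 60 h this sum took in opposite differences, with Nfe2l2 at 93.3 against 127 CPM and Prdx1 at 239.6 against 214 CPM. A link between the epithelium and these genes was not tested.

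**Figure D3:**
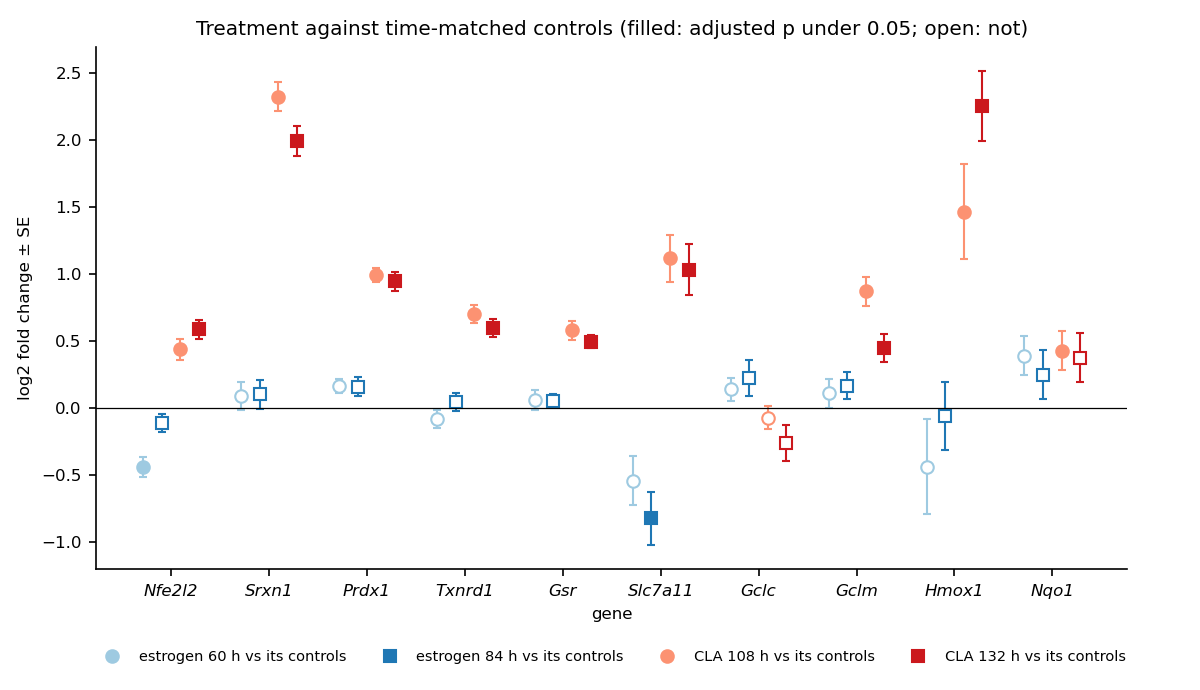
Log2 fold change with its SE (y axis) of the 10 genes (x axis) in the 4 comparisons of a treatment with controls of the same time, filled where the adjusted p was under 0.05. The CLA symbols lie above 0 for 9 genes at both times, led by Srxn1 and Hmox1, whereas the filled estrogen symbols are Nfe2l2 at 60 h and Slc7a11 at 84 h, both below 0.

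The difference between the treatments was tested directly, as the CLA effect minus the estrogen effect, each against its own controls, although the times differ. The estrogen mice were also in a run of animal numbers without controls, so these differences cannot be told apart from that run. For CLA at 108 h against estrogen at 60 h, 8 of the 10 genes were higher, 32.4% of all 17852 genes differing (17.5% higher and 14.9% lower). With upper-quartile scaling the split of all genes moved from 3126 higher and 2656 lower to 2298 and 3595 here, and at the later times from 3706 and 3506 to 2871 and 4468, with the same counts of the 10. In RPKM the splits were 3579 and 1888, and 4620 and 2683, with 8 of the 10 higher and 0 lower each time. Nqo1 (0.04 ± 0.24, adjusted p = 0.920) and Gclc (-0.21 ± 0.16, adjusted p = 0.330) did not pass. For CLA at 132 h against estrogen at 84 h, 7 were higher and 1 lower, 40.4% of all genes differing (20.8% higher and 19.6% lower). The largest differences at 132 h against 84 h were those of Hmox1 (2.33 ± 0.45, adjusted p = 9.82e-05), Srxn1 (1.91 ± 0.16, adjusted p = 1.39e-11) and Slc7a11 (1.88 ± 0.27, adjusted p = 9.88e-07), the last of which takes in its uncertain fall with estrogen. Gclc was the lower gene (-0.47 ± 0.16, adjusted p = 0.020), and without the high-skin libraries it was -0.05 (adjusted p = 0.840). Its call was also lost without control replicate 1 at 132 h (adjusted p = 0.0733) or estrogen replicate 3 at 84 h (adjusted p = 0.0504), and in RPKM (adjusted p = 0.161). Nqo1 (0.15 ± 0.24, adjusted p = 0.657) and Gclm (0.30 ± 0.15, adjusted p = 0.109) did not pass. Gclm passed in RPKM (0.50, adjusted p = 0.00158), without CLA replicate 3 at 132 h (0.38, adjusted p = 0.0397) and without control replicate 4 at 84 h (0.36, adjusted p = 0.0498).

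The 7 lists of other pathway genes held 67 genes in all. With CLA, at 108 h 24 of them were higher and 16 lower, and at 132 h 22 were higher and 23 lower, with medians of 0.00 and -0.12. That is 35.8% higher and 23.9% lower at 108 h, beside 24.9% and 23.0% of all genes, and 32.8% and 34.3% at 132 h, beside 27.0% and 29.0%. Of all 16936 genes tested at both CLA times 21.3% rose and 19.5% fell at both, which is the background for the counts at both times below. With estrogen 5 changed at 60 h, of which 1 (Tfrc) was lower, and at 84 h Ggt1 was higher and Ugdh lower. That is 5.97% higher and 1.49% lower at 60 h, beside 4.07% and 2.42% of all genes. At 84 h it is 1.49% in each direction, beside 3.45% higher and 1.97% lower. These estrogen shares were near or below those of all genes.

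Among 9 regulators and partners of NRF2, 5 rose and 1 fell at both CLA times. Sqstm1 encodes p62, which draws KEAP1 away from NRF2, and is itself an NRF2 target. At 108 h it averaged 237 CPM in controls and 668 CPM with CLA (log2 fold change 1.5 ± 0.09), and at 132 h 258 and 612 CPM (1.24 ± 0.09). Bach1, a repressor that competes with NRF2 for the same elements, rose by 0.53 and 0.52. Mafg, a small MAF partner, rose by 0.56 and 0.34. Nfe2l1, the related factor NRF1, fell by 0.21 and 0.37. Keap1 did not pass at either time (0.17 ± 0.08, adjusted p = 0.0761, and -0.05 ± 0.06, adjusted p = 0.469).

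Of 8 other genes of cystine import and glutathione synthesis or breakdown, 3 rose and 1 fell at both CLA times. Slc3a2, the heavy chain that pairs with Slc7a11, averaged 123 CPM in controls and 229 CPM with CLA at 108 h (0.89 ± 0.07), and 129 and 225 CPM at 132 h (0.79 ± 0.09). Gss, glutathione synthetase, rose by 0.57 and 0.29, and Ggt5, which cleaves glutathione and its conjugates, by 0.54 and 0.78. Cbs, which starts the route from methionine to cysteine, was low and fell from 4.14 to 0.829 CPM, then from 8.26 to 0.812 CPM. Ggt1 was the gene of this list that rose with estrogen at both times (0.323 to 4.49 CPM, adjusted p = 0.0135, and 0.625 to 6.87 CPM, adjusted p = 0.0288).

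Thioredoxin itself, Txn1, rose with its reductase, from 97.7 to 174 CPM at 108 h (0.83 ± 0.06) and to 169.5 CPM at 132 h (0.78 ± 0.06). Of the 8 genes of the thioredoxin and glutaredoxin list, 2 rose and 2 fell at both times. Glrx rose by 0.47 and 0.46, while Txnrd3, a reductase best known from testis, fell by 0.60 and 0.62 and the mitochondrial Glrx2 by 0.31 and 0.20. Of 13 other peroxide and superoxide enzymes, 4 rose and 3 fell at both times. Gpx1, the main cytosolic glutathione peroxidase, went from 218 to 498 CPM (1.19 ± 0.09) and from 219.8 to 542 CPM (1.29 ± 0.08). The endoplasmic reticulum enzymes Prdx4 (0.87 and 1.10) and Gpx7 (0.74 and 0.85) rose as well. Gpx3, the secreted glutathione peroxidase that fat cells express strongly, fell by 1.27 and 2.13.

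Of 14 transferases and detoxifying enzymes, 3 rose and 4 fell at both CLA times. Cbr3, a carbonyl reductase, went from 10.2 to 31.6 CPM (1.62 ± 0.10, adjusted p = 4.34e-10) and from 10.6 to 30.4 CPM (1.5 ± 0.10, adjusted p = 3.18e-10). Ugdh, which makes UDP-glucuronate, rose by 0.46 and 0.70. Cbr1, a close relative of Cbr3, fell by 0.38 and 0.61, and the glutathione transferase Gstm1 fell by 0.67 and 0.82. Gstm2 rose with estrogen at 60 h (0.32 ± 0.08, adjusted p = 0.026) and Ugdh fell with it at 84 h (-0.28 ± 0.08, adjusted p = 0.0437).

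The heme and iron list followed Hmox1 in part, with 4 of 9 genes higher and 1 lower at both CLA times. Ftl1, the ferritin light chain that stores the iron freed from heme, went from 163 to 487 CPM (1.58 ± 0.10) and from 162 to 562 CPM (1.78 ± 0.11). The biliverdin reductases Blvra (1.22 and 1.37) and Blvrb (1.09 and 1.02), which act on the product of Hmox1, rose too. Fech, the last enzyme of heme synthesis, fell by 0.39 and 0.49. The list for NADPH supply held 6 enzymes that make NADPH or act in the pentose phosphate pathway, and 0 rose and 2 fell at both times. Tkt of that pathway fell by 1.52 and 1.89, and malic enzyme Me1, which also feeds fat synthesis, by 0.67 and 1.01. G6pdx rose with estrogen at 60 h (0.61 ± 0.13, adjusted p = 0.014) and Blvra slightly (0.27 ± 0.08, adjusted p = 0.045), while Tfrc, the transferrin receptor, fell (-0.65 ± 0.15, adjusted p = 0.0212).

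**Figure D4:**
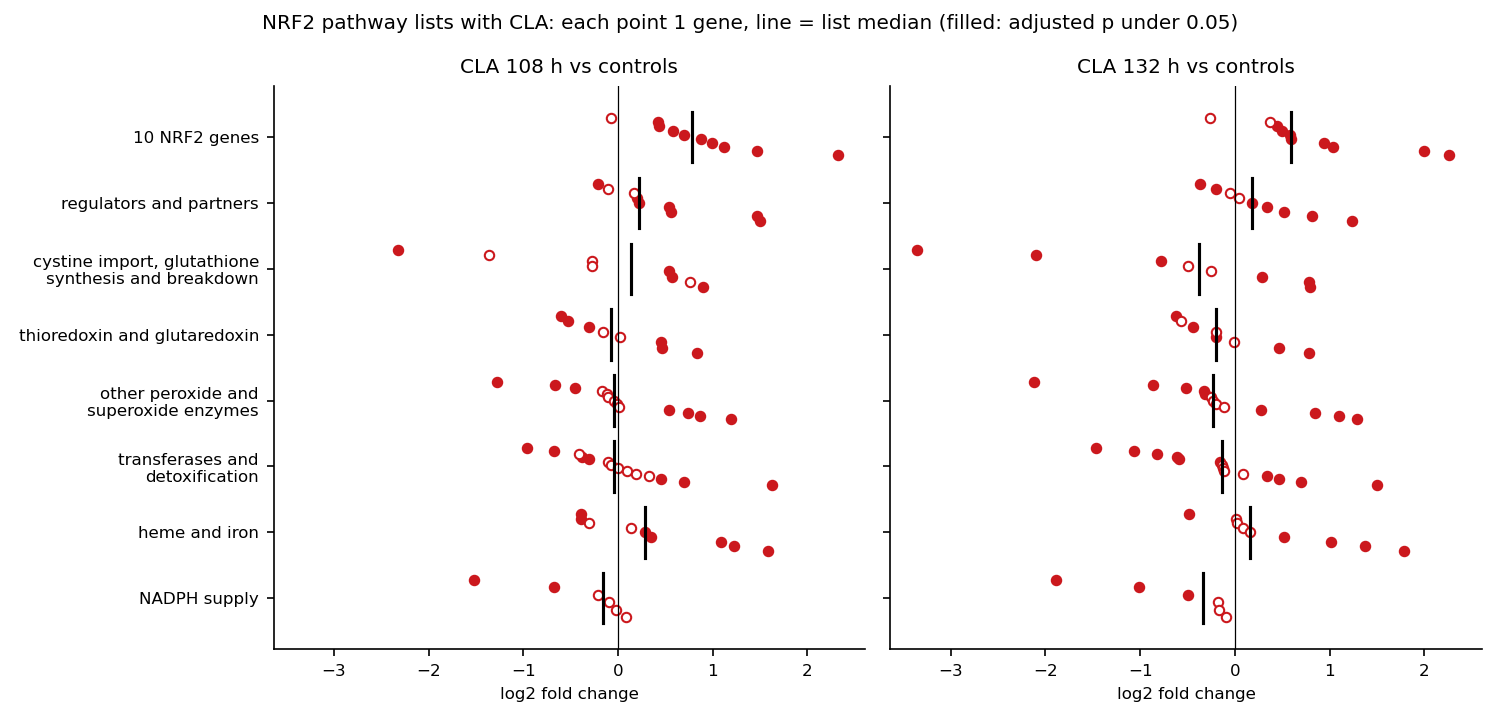
Log2 fold change with CLA (x axes) of the 10 genes and of 7 lists of other pathway genes (rows) at 108 h and 132 h, with 1 point per gene, filled where the adjusted p was under 0.05, and a line at each list's median. The first row lies mostly right of 0, the NADPH row left of it, and the other rows hold genes on both sides.

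Markers of several cell types moved with CLA. Of 12 macrophage markers 10 rose at both times and 0 fell, and their summed level went from 934 to 1720 CPM over the controls to 2749 to 4158 CPM over the CLA libraries at 108 h, and from 636 to 1137 CPM to 2883 to 5375 CPM at 132 h. The ratio of means was 2.59 and 4.54, and 0 of the 12 markers was at 0 in all libraries of any group. Trem2, a receptor of lipid-handling macrophages, and Itgax changed by 4.20 and 3.9 log2 units at 108 h. Of 10 fat cell markers 8 fell at both times, with ratios of 0.662 and 0.638, and 5 of 5 endothelial markers fell. Of 9 skin and hair markers tested 6 fell at 108 h and 8 at 132 h (ratios of summed levels 0.0308 and 0.0153), and of 5 skeletal muscle markers 5 fell at 108 h and 0 passed the test at 132 h (ratios 0.0981 and 0.0605). The share of counts from mitochondrial genes was 4.76% to 6.73% with CLA and 7.25% to 8.64% in controls at 108 h, and 4.13% to 7.91% against 7.75% to 9.67% at 132 h. Of 5 fibroblast markers 2 rose at 108 h and 5 at 132 h. Of 8 mammary epithelium markers 1 fell at 108 h and 2 at 132 h. The ratios of their summed levels were 0.716 and 0.522, with overlapping ranges. For lymphocyte markers the ratios were 1.5 and 0.575, and for neutrophil markers 1.07 and 1.29. The part of these shifts in the rise of the antioxidant genes was not tested.

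**Figure D5:**
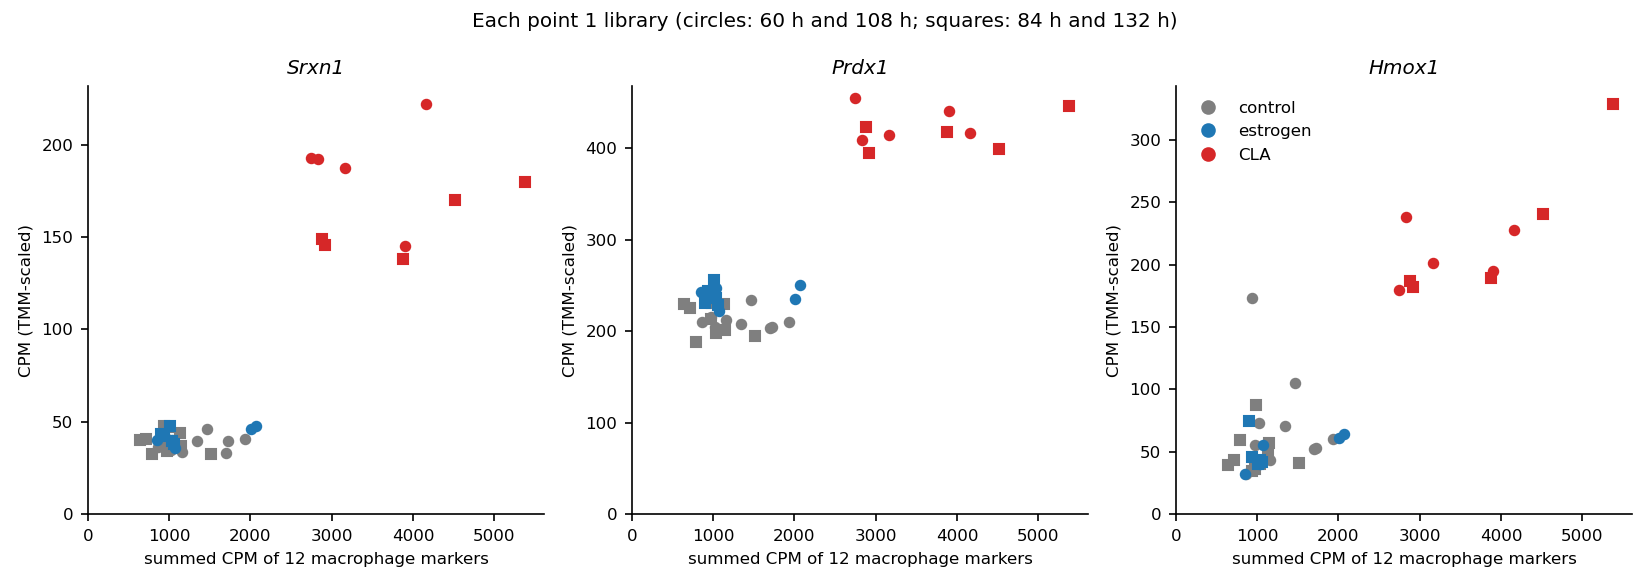
CPM of Srxn1, Prdx1 and Hmox1 (y axes) against the summed CPM of 12 macrophage markers (x axes), with 1 point per library, controls in grey, estrogen in blue and CLA in red, circles for the earlier and squares for the later time of each treatment. The CLA libraries lie apart on both axes, and among them Prdx1 keeps to 395 to 455 CPM. At 132 h 1 CLA library is highest in both Hmox1 (328 CPM) and the markers. At 108 h the CLA library highest in Hmox1 (238 CPM) has markers at 2828 CPM, and another reaches 4158 CPM.

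Among mice of the same group the 10 genes varied together only in part. After each library's log2 CPM had been centred on its group mean, the 45 pairs of genes had a median Pearson r of 0.09 over 40 libraries (range -0.28 to 0.63), and 5 pairs were above 0.5. Srxn1 was in 4 of them, with Gclm (0.63), Prdx1 (0.60), Gsr (0.59) and Txnrd1 (0.53), and the fifth was Gclm with Txnrd1 (0.60). Centred r with the summed macrophage markers was 0.18 for Srxn1, 0.20 for Hmox1 and -0.13 for Prdx1. With the muscle markers Srxn1 had -0.44 and Prdx1 -0.42, with the skin markers they had -0.33 and -0.32, and with the fat cell markers 0.12 and 0.31. Gclc stood out, with -0.69 against the fat cell markers and 0.61 against the skin markers, and Slc7a11 had 0.60 with skin. These libraries share depth and tissue makeup, so the values describe them and no test was made. The other genes closest to the mean of the 10 in this within-group sense were Cdc42se1 (0.68), Armc7 (0.68), C2cd2l (0.67), Marcksl1 (0.61) and Tnfrsf11a (0.60), of 10119 genes ranked. Closest to Srxn1 in the pattern of the 4 fold changes were Rab7b, Mfsd12, Cstb, Sh3bp2 and Gla, with CLA changes of 1.83 to 2.11 log2 units at 108 h and 2.01 to 2.44 at 132 h.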

How the data were processed

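The authors deposited gene counts in a pair of tables, the first holding the 60 h and 108 h groups and the second the 84 h and 132 h groups, and RPKM values in a matching pair. Per the labels' protocols, poly(A) RNA went into stranded libraries with 10 PCR cycles, pooled over 4 lanes. The build was GRCm38 per the submitters' processing notes, while aligner, counter and annotation were not given in the sources used here. Each treatment was tested against its own controls with edgeR 4.0.16 (R 4.3.3; quasi-likelihood F test, robust, TMM, filterByExpr with minimum count 10 and minimum total 15), the 4 groups of a table sharing 1 estimate of the spread. Differences between effects were fitted over all 40 libraries. P-values were adjusted by Benjamini-Hochberg over all genes tested, with a threshold of 0.05. Alternatives used other scalings, filters, DESeq2 1.42.0, limma 3.58.1 on log2(RPKM + 0.1) or log2(RPKM + 1), a term for each run of animal numbers (CLA only), and fewer libraries. Scripts were tested on simulated data. Members, lists and markers were chosen with earlier results of these data known. All 10 members are named, and of each other list up to 4 genes with the same call at both CLA times and the smallest p at 132 h, up to 3 called with estrogen, and 5 nearest genes with mean log2 CPM of at least 3; Keap1, Trem2 and Itgax were also named after their values were seen. A library was called high in skin where its mean log2 CPM (pseudocount 1) over the skin and hair markers was above 1.5. The precision of counts of 28 to 290 limits Slc7a11 most. No library was a copy of another of its group (80 pairs), and pairs from different groups were not compared.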

Additional observations from a re-analysis of the deposited data

Results flagged for a closer look

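Among 80 groups of 5 mice (10 genes in 8 groups), 9 had a mouse that stood far from the other 4, by the gap to its nearest neighbour as a share of the group's whole range. Chance marks about 1 group in 20, which is close to 4 of 80. Hmox1 in control replicate 5 at 108 h was the widest, with 173 CPM against 43.4 to 55.1 CPM and a gap of 0.91 of the range. Hmox1 was also high in estrogen replicate 3 at 84 h (74.3 against 39.9 to 46.0 CPM, 0.822), and in the same mouse Gclc was high (55.0 against 40.0 to 42.9 CPM, 0.808). Nfe2l2 was high in control replicate 1 at 108 h (121 against 93.3 to 97.1 CPM, 0.862) and in CLA replicate 4 at 108 h (153 against 128 to 134 CPM, 0.751). Among controls at 60 h, replicate 2 was high in Prdx1 (234 against 205 to 210.5 CPM, 0.808) and in Gsr (101 against 75.2 to 82.5 CPM, 0.718). In that group replicate 1 was high in Nqo1 (5.43 against 3.97 to 4.38 CPM, 0.722) and in Slc7a11 (3.28 against 2.14 to 2.46 CPM, 0.721).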

How the results depend on the processing

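Of 2180 values of the 10 genes under other settings, 2141 kept their side of the threshold, 16 lost a call and 23 gained one. The sign changed for 69 of the 2141, all values that did not pass, and for 0 called values. The number of genes called with estrogen at 60 h was 1, but 2 with upper-quartile scaling (Prdx1 added) and 3 with DESeq2 (Prdx1 and Slc7a11 added). At 84 h it was 1, and 0 without the high-skin libraries. In RPKM it was also 1, but Prdx1 (0.20, limma adjusted p = 0.0338) in place of Slc7a11. Over the control groups DESeq2 called 3 in place of 1. Leaving out 1 mouse at a time gave 1 to 2 genes for estrogen at 60 h, 0 to 1 at 84 h, 8 to 9 for CLA at 108 h, 8 to 9 at 132 h, 0 to 0 for each difference between times, 8 to 8 and 7 to 9 for CLA against estrogen, and 1 to 3 over the controls. The cause was not tested. Without the high-skin libraries, and so with fewer mice, all genes called fell from 1119 to 513 and from 931 to 209 with estrogen and from 2385 to 7 over the controls. With no filter on low counts 593 were called for estrogen at 60 h, with the 60 h groups alone 742, and with DESeq2 1878 at 60 h and 1617 at 84 h. RPKM gave 680 with a pseudocount of 1 at 60 h, and 990 and 900 over the controls. In RPKM at 132 h the median of all genes with CLA was 0.12, against -0.03 in counts. DESeq2 called 87 genes in all for the CLA difference between times and 17 for the estrogen one. With a term for each run of animal numbers, 9 of the 10 genes and 7964 of all were called for CLA at 108 h, and 8 and 9336 at 132 h. No paired analysis was possible because the labels give no replicate numbers shared between groups.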
